A study of Mus musculus with 4 samples.

Results

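The 9 genes described here, *Hmgcs1*, *Mvk*, *Mvd*, *Fdps*, *Fdft1*, *Sqle*, *Lss*, *Cyp51* and *Dhcr7*, encode enzymes that build cholesterol from acetyl-CoA. They were chosen by symbol, as 9 of the 15981 genes listed in the tables of at least 1 library. The cells were CD8+ T cells of Thy1.1+ Pmel-1 mice, which carry a T cell receptor for the melanoma antigen gp100. They were polarized in vitro over 5 days to Tc1 cells, with recombinant IL-2, or to Tc9 cells, with IL-4, TGF-β and an antibody against IFN-γ. According to the study's methods, the last part of this culture was in standard medium with IL-2 for both. Both groups were then injected intravenously into Thy1.2+ C57BL/6 (B6) mice that carried subcutaneous B16 melanomas for 10 days, and the transferred cells were sorted from the tumors 14 days later. The methods also name cyclophosphamide, peptide-pulsed dendritic cells and IL-2 as adjuvants of this tumor model. The animals' age and sex are not given in the sources used here. RNA of several mice was pooled into 2 libraries per group, and nothing states which mice entered which pool, so the tests below measure the spread between these pools.

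Early in cholesterol synthesis, HMG-CoA synthase (*Hmgcs1*) adds an acetyl unit to acetoacetyl-CoA. The mevalonate that follows is phosphorylated by mevalonate kinase (*Mvk*) and decarboxylated by *Mvd* to isoprenoid units. Farnesyl diphosphate synthase (*Fdps*) assembles these into farnesyl diphosphate, which either serves to attach lipid anchors to proteins or goes on to sterols through squalene synthase (*Fdft1*), squalene epoxidase (*Sqle*) and lanosterol synthase (*Lss*). *Cyp51* removes a methyl group from lanosterol and *Dhcr7* carries out a last reduction to cholesterol. The genes of the pathway are classic targets of SREBP-2 (*Srebf2*), a transcription factor that is released from the endoplasmic reticulum when sterols are scarce, and dividing T cells are known to use the pathway for new membrane.

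SREBP-2 binds sterol regulatory elements in the promoters of these genes. RefSeq promoter sequences (GRCm38.p6) were at hand for 6 of the 9 genes, and the 250 bases before each start were searched on both strands for a strict form of the element, TCACNCCAC. It occurred in 1 of the 8 windows of these 6 genes, that of *Hmgcs1*, and in 1.04% of the 32536 different windows of all genes. Other forms of the element were not searched, so a window without a match may still hold one. The window of *Hmgcs1* is shown because it holds the match, whose letters are in capitals, and it spans chr13:119690101-119690350 on the plus strand, upstream of the gene at 119690351 to 119708260. In the same build the other genes lie at chr5:114444264-114460591 (*Mvk*), chr8:122433596-122443422 (*Mvd*), chr3:89093588-89101967 (*Fdps*), chr14:63145150-63181687 (*Fdft1*), chr15:59315092-59331193 (*Sqle*), chr10:76531565-76557139 (*Lss*), chr5:4080674-4104697 (*Cyp51*) and chr7:143823167-143848410 (*Dhcr7*).

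Hmgcs1: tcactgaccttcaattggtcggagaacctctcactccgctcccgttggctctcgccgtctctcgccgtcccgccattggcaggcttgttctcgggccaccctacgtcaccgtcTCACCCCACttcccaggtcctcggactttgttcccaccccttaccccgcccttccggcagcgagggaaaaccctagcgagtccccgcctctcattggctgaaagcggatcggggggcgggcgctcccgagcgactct

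The match begins at position -137, where -1 is the last base before the start. CCAAT, the core of the NF-Y site, on either strand, was present in 6 of 8 windows, 1 for each of the 6 genes, against 33.8% of all windows, and *Mvk* alone held 5 copies. TTCNNNGAA, the palindromic form of a STAT site, was in 0 of 8, against 7.04% of all windows. These matches describe letters within a fixed distance of annotated starts. *Dhcr7* has 3 annotated starts, and its CCAAT matches lie before the most downstream of them.

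The 4 tables list genes in the order of their identifiers and stop at different points, so the genes are covered unequally. *Fdps* was reached by all 4 libraries. *Fdft1*, *Lss*, *Cyp51* and *Dhcr7* were reached by 3, Tc1 replicate 2 and both Tc9 libraries, and *Hmgcs1*, *Mvk*, *Mvd* and *Sqle* by the replicate 2 libraries alone. In the replicate 2 libraries all 9 passed the low-count filter. The depth was between 30822953 and 31927162 counts in the 4 libraries. CPM below is the count scaled to a common library size, from this depth and edgeR's TMM factors, and FPKM is the authors' value per length of the gene. T cell markers were high throughout, with *Cd8a* between 19330 and 21622 counts in the 4 libraries, while *Trac* was listed in none. Some differed between the groups in edgeR's quasi-likelihood test over the 4 libraries, with Benjamini-Hochberg adjustment. *Cd3e* (log2 difference 0.73, adjusted p = 0.0108) and *Cd3g* (0.49, adjusted p = 0.00995) were higher in Tc9 cells. *Cd2* was lower (-0.44, adjusted p = 0.0107), and *Cd3d*, *Cd8a* and *Cd8b1* did not pass. Of all genes tested there, 17.4% were higher and 16.7% lower. Of 7 melanoma markers reached by both replicate 2 libraries, 4 were not listed in either, and their summed level was 2.61 CPM in Tc1 replicate 2 and 4.28 CPM in Tc9 replicate 2. The 10 myeloid markers summed to 7.77 and 14.7 CPM, nearly all of it *Cd68*, and the 5 B cell markers to 5.41 and 15.5 CPM, nearly all of it *Cd79b*. *Cd68* had 7.17 and 7.04 CPM in Tc1 and 11.4 and 14.0 CPM in Tc9 cells. Its log2 difference over the 4 libraries was 0.84 (adjusted p = 0.00295 by edgeR). *Cd79b* had 4.94 CPM in Tc1 replicate 2 and 12.1 and 15.1 CPM in Tc9 replicates 1 and 2. Against these sums the 9 enzymes together held 1720 CPM in Tc1 replicate 2 and 1963 CPM in Tc9 replicate 2. In bulk RNA a lower share of cells that express a gene and less RNA per cell cannot be told apart.

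All 9 enzymes were well expressed in the tumor-infiltrating cells. By FPKM the order was the same in both replicate 2 libraries: *Fdps*, *Hmgcs1*, *Cyp51*, *Sqle*, *Fdft1*, *Mvd*, *Dhcr7*, *Lss* and *Mvk*. *Fdps* had 274 FPKM in Tc1 replicate 2 and 294 FPKM in Tc9 replicate 2, rank 168 of 7408 and rank 134 of 7425 genes listed in the shared range. *Mvk* had 13.1 and 25.3 FPKM, rank 2536 and rank 1732. In the middle of the order, *Fdft1*, *Mvd* and *Dhcr7* lay close together in Tc9 replicate 2, at 49.2, 47.3 and 45.0 FPKM. *Dhcr7* had 33.6 FPKM in the other Tc9 library, so the distances within this trio were smaller than the spread of *Dhcr7* between the Tc9 libraries.

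**Figure D1:**
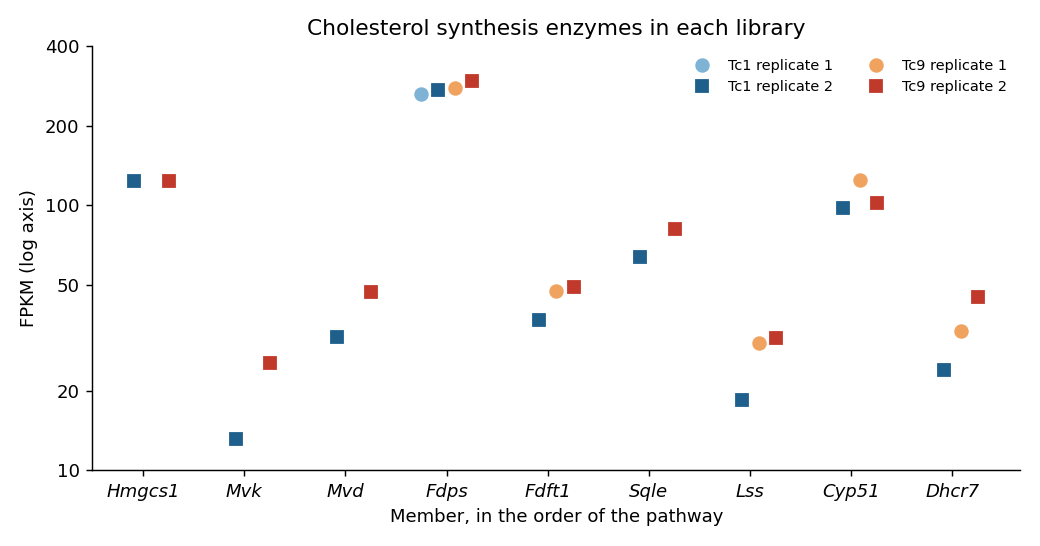
FPKM (log axis) of the 9 enzymes in each library that reaches the gene; each point is 1 library, with circles for replicate 1 and squares for replicate 2. *Fdps* is highest in every library, and the Tc9 and Tc1 points lie farthest apart for *Mvk*, *Dhcr7* and *Lss*.

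The comparison of Tc9 with Tc1 cells asks whether the pathway differed between 2 T cell types that were compared for their lipid metabolism and persistence in the tumor. In the 4-library range 224 of 1284 genes tested were higher in Tc9 cells (17.4%) and 214 were lower (16.7%) at an adjusted p under 0.05. *Fdps* was not among them. It stood at 301 and 313 CPM in Tc1 replicates 1 and 2 and at 310 and 328 CPM in Tc9 replicates 1 and 2. The groups overlapped, with Tc9 replicate 1 between the Tc1 libraries. The means were 307 ± 8.14 CPM in Tc1 cells and 319 ± 12.7 CPM in Tc9 cells (SD, n = 2 each). The log2 difference was 0.05 (SE 0.10, adjusted p = 0.710 by edgeR's quasi-likelihood test with Benjamini-Hochberg adjustment). The counts of *Fdps* and *Fdft1* are not whole in some libraries, and the deposited counts are estimates. How their reads were apportioned is not given in the sources used here.

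The 4 enzymes reached by 3 libraries were higher in both Tc9 libraries than in Tc1 replicate 2, *Cyp51* barely so in Tc9 replicate 2. *Lss*, which closes the sterol ring, had 117 CPM in Tc1 replicate 2 and 186 and 191 CPM in Tc9 replicates 1 and 2. The Tc9 libraries lay close together and far above the Tc1 library. *Fdft1*, which commits farnesyl diphosphate to sterols, had 134 CPM in the Tc1 library and 169 and 173 CPM in the Tc9 libraries. The Tc9 libraries were again close to each other. Past lanosterol the Tc9 libraries differed more. *Dhcr7* had 57.9 CPM in Tc1 replicate 2 and 79.6 and 105 CPM in Tc9 replicates 1 and 2, and *Cyp51* had 421, 522 and 424 CPM in the same order. For *Cyp51* the higher level was in Tc9 replicate 1, while the counting interval of the ratio of Tc9 replicate 2 to the Tc1 library includes 0.

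In the fit over these 3 libraries 0 of 5 enzymes, *Fdps* included, passed the test by edgeR, with 2 of 5 at an unadjusted p under 0.05, against 699 of all 2622 genes. DESeq2 called 1 of 5 and limma 0. The log2 difference was 0.69 for *Lss* (SE 0.22, adjusted p = 0.110), 0.68 for *Dhcr7* (SE 0.26, adjusted p = 0.172), 0.35 for *Fdft1* (SE 0.21, adjusted p = 0.348) and 0.17 for *Cyp51* (SE 0.23, adjusted p = 0.675), by edgeR. Among 2622 genes tested there, 197 were higher (7.51%) and 84 lower (3.20%). Scaling by DESeq2's size factors gave 321 higher and 216 lower. The Tc1 side is a single library, assumed to vary like the Tc9 libraries, with 1 residual degree of freedom. The calls of *Lss* and *Dhcr7* depended on the processing: *Lss* passed with depth alone (adjusted p = 0.0314), with a minimum count of 50 (adjusted p = 0.0461) and with DESeq2 (adjusted p = 0.0244), and *Dhcr7* with depth alone (adjusted p = 0.0373) and a minimum count of 50 (adjusted p = 0.0486). Over the settings with a test, the adjusted p of *Lss* lay between 0.0244 and 0.250, and that of *Dhcr7* between 0.0373 and 0.365. Counting *Fdps* with these 4 genes, both Tc9 libraries lay above Tc1 replicate 2 for 4 of 5 enzymes, against 44.0% of all genes tested.

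The replicate 2 libraries cover all 9 enzymes and give 1 library per group, so the ratios have no test. On the mevalonate arm, *Mvk* had 21.1 CPM in Tc1 and 39.6 CPM in Tc9 cells, a log2 ratio of 0.91 (95% Wilson interval 0.78 to 1.05, counting error only). *Mvd*, the enzyme that ends this arm, had 58.7 and 83.1 CPM, a log2 ratio of 0.50 (0.42 to 0.59). *Hmgcs1*, the earliest of the 9 enzymes in the pathway, had 428 and 411 CPM, a log2 ratio of -0.06 (-0.09 to -0.02). *Sqle*, a step known to limit the rate of sterol synthesis, had 169 and 208 CPM, a log2 ratio of 0.30 (0.25 to 0.35). In the same pair of libraries *Dhcr7* had a log2 ratio of 0.86 (0.78 to 0.95), *Lss* of 0.71 (0.65 to 0.77), *Fdft1* of 0.37 (0.31 to 0.42), *Fdps* of 0.07 (0.03 to 0.11) and *Cyp51* of 0.01 (-0.03 to 0.04).

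Past 1.5-fold higher in Tc9 replicate 2 were 3 of 9 enzymes, *Mvk* (1.88-fold), *Dhcr7* (1.82-fold) and *Lss* (1.64-fold), against 20.7% of the 6161 genes compared. Past 1.5-fold lower were 0 of 9, against 12.5%. Ratios were above 0 for 8 of 9 enzymes, against 52.4% of all genes, of which *Cyp51* went to -0.02 with TMM factors computed over the range of the replicate 2 libraries, and the counting interval lay above 0 for 7 of 9, against 39.7% of all genes. The median log2 ratio of the 9 was 0.37, and that of all 6161 genes was 0.03. The spread between libraries of 1 group is the scale for these values. Among genes of at least 500 counts on average, 95% differed by less than 0.17 on the log2 scale between the Tc1 libraries and by less than 0.50 between the Tc9 libraries. *Mvk*, *Dhcr7* and *Lss* lay beyond the wider limit, *Mvd* lay at it, and the other 5 lay within it. For *Dhcr7* the ratio to Tc1 replicate 2 was 0.46 when Tc9 replicate 1 was used in place of Tc9 replicate 2, which lies inside the limit, and for *Cyp51* it was 0.31. For *Lss* and *Fdft1* it stayed at 0.67 and 0.33.

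**Figure D2:**
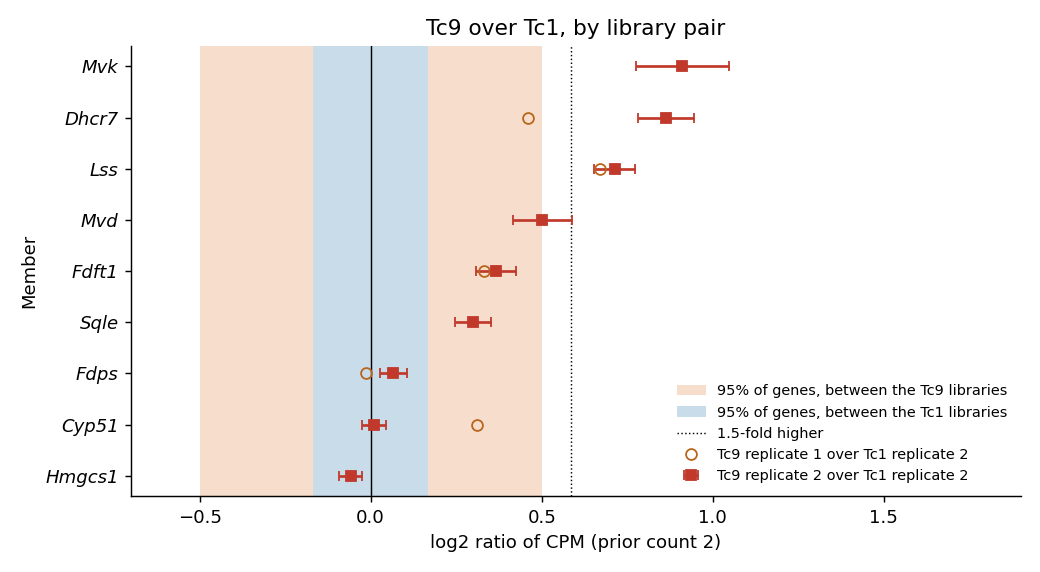
Log2 ratio of CPM in Tc9 replicate 2 (squares, with 95% Wilson counting intervals) and Tc9 replicate 1 (open circles) over Tc1 replicate 2; shaded bands hold 95% of genes of at least 500 counts in comparisons of libraries of 1 group. *Mvk*, *Dhcr7* and *Lss* lie beyond the wider band in Tc9 replicate 2, and *Dhcr7* lies inside it in Tc9 replicate 1.

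The enzymes with low levels had the larger ratios. Across the 9 genes the log2 ratio and the log2 FPKM in Tc1 replicate 2 had a Spearman rho of -0.93 and a Pearson r of -0.91, and against the FPKM in Tc9 replicate 2 they were -0.93 and -0.85. The points share the same pair of libraries, and the level is part of the ratio. Over 3588 genes of at least 500 counts in both libraries the same rho was -0.32. *Mvk*, *Lss* and *Dhcr7*, the lowest 3 by FPKM, were those past 1.5-fold, while *Fdps*, *Hmgcs1* and *Cyp51*, the highest 3, had log2 ratios between -0.06 and 0.07. With other enzymes of the pathway added, rho was -0.77 over 14 genes.

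**Figure D3:**
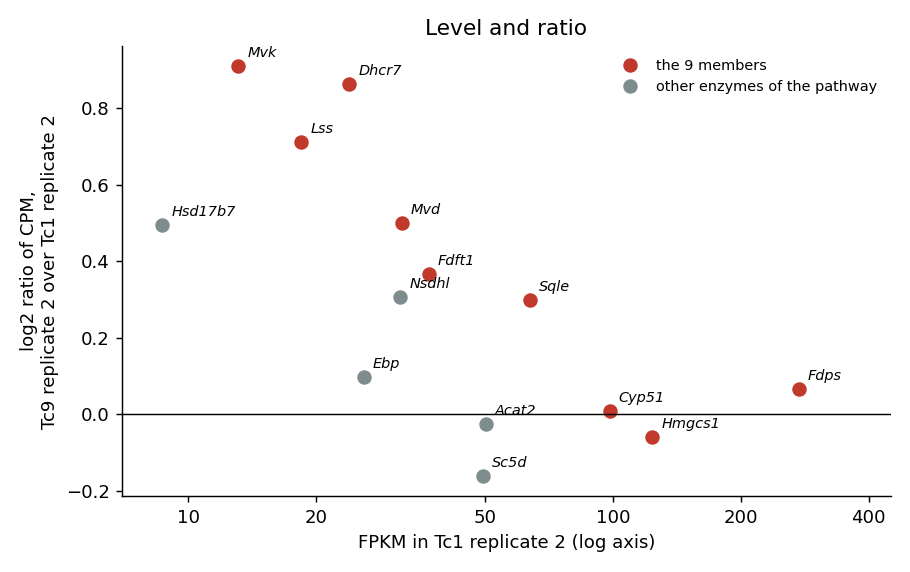
FPKM in Tc1 replicate 2 (log axis) and log2 ratio of CPM in Tc9 replicate 2 over Tc1 replicate 2 for the 9 enzymes (red) and 5 other enzymes of the pathway (gray); each point is a gene. Ratios of the 9 decline from 0.91 for *Mvk*, the lowest, to values near 0 for *Cyp51*, *Hmgcs1* and *Fdps*.

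As a share of the library, the 9 enzymes took 0.169% of counts in Tc1 replicate 2 and 0.200% in Tc9 replicate 2. The 5 that 3 libraries reach summed to 1043 CPM in Tc1 replicate 2, 1266 CPM in Tc9 replicate 1 and 1221 CPM in Tc9 replicate 2. Both Tc9 sums were above the Tc1 sum, with *Cyp51* and *Fdps* as the largest parts.

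Of 11 other enzymes of the pathway, 5 were reached by both replicate 2 libraries. In that pair 0 of 5 were past 1.5-fold in either direction, against 20.7% higher and 12.5% lower of all genes, with a median log2 ratio of 0.10. By edgeR 0 of 1 passed in the 4-library fit, where 17.4% of all genes were called higher and 16.7% lower, and 0 of 3 in the 3-library fit, where 7.51% were called higher and 3.20% lower. In the latter 1 of 3 had an unadjusted p under 0.05, as did 699 of all 2622 genes, and DESeq2 and limma called 0 in either fit. *Hsd17b7*, a 3-ketosteroid reductase of the demethylation complex, was the highest, with 39.2 CPM in Tc1 replicate 2 and 62.9 and 55.3 CPM in Tc9 replicates 1 and 2, a log2 difference of 0.59 in the 3-library fit that did not pass (SE 0.22, adjusted p = 0.163 by edgeR). *Sc5d*, the desaturase ahead of *Dhcr7*, was the lowest, with 106 and 94.6 CPM in the replicate 2 libraries. *Acat2*, which makes acetoacetyl-CoA for *Hmgcs1*, was reached by all 4 libraries, with 93.3 and 99.1 CPM in Tc1 and 111 and 97.3 CPM in Tc9 cells. Its log2 difference of 0.12 did not pass (SE 0.12, adjusted p = 0.466 by edgeR), and without Tc9 replicate 2 it was 0.21 and passed (adjusted p = 0.0183, against 0.318 to 0.879 under the other alternatives).

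Genes of sterol control had a median log2 ratio of 0.52 in the replicate 2 libraries. Of 14, 10 were compared there, and *Nr1h3* was in range but not listed. Past 1.5-fold higher were 3 of 10, with 0 lower, against 20.7% and 12.5% of all genes. *Soat1*, which esterifies cholesterol for storage, had the highest ratio, with 23.3 CPM in Tc1 and 46.8 CPM in Tc9 replicate 2. *Srebf2* itself had 346 and 465 CPM, a log2 ratio of 0.43 (0.39 to 0.46), within the spread between the Tc9 libraries. *Scap*, the escort of SREBP, had 98.8 and 146 CPM, a log2 ratio of 0.56, beyond the limit of 0.50 for that spread. *Insig1*, which retains the pair in the endoplasmic reticulum, had 104 and 145 CPM, a log2 ratio of 0.49, just within it. Of 2 genes in the 4-library fit 1 rose in Tc9 cells, *Abcg1*, a sterol exporter, against 17.4% of all genes. In the 3-library fit 0 of 3 passed by edgeR, DESeq2 or limma, against 7.51% of all genes called higher and 3.20% lower by edgeR, with 1 at an unadjusted p under 0.05 by edgeR. It had 16.3 and 15.5 CPM in Tc1 and 21.8 and 23.4 CPM in Tc9 cells, with no overlap, and the log2 difference was 0.51 (SE 0.12, adjusted p = 0.0104 by edgeR). Without Tc1 replicate 1 or Tc1 replicate 2 it did not pass (adjusted p = 0.176 and 0.227, against 0.000348 to 0.0384 under the other alternatives). *Abca1*, the other exporter, stayed between 1.94 and 2.74 CPM in the 4 libraries. In this list *Abca1* had the lowest ratio in the replicate 2 libraries, -0.10.

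Of the genes of isoprenoid metabolism outside the sterol branch, 4 of 5 compared had ratios below 0 in the replicate 2 libraries, against 47.6% of all genes. Of the 5, from a list of 10, 1 was past 1.5-fold higher and 2 were past 1.5-fold lower, against 20.7% and 12.5% of all genes, with a median log2 ratio of -0.40. *Rabggtb*, a subunit of the enzyme that prenylates Rab proteins, had 105 CPM in Tc1 and 59.9 CPM in Tc9 replicate 2, the lowest ratio. *Ggps1*, which lengthens farnesyl to geranylgeranyl diphosphate, had 39.8 CPM in Tc1 replicate 2 and 35.3 and 26.3 CPM in Tc9 replicates 1 and 2, and its log2 difference of -0.37 did not pass (adjusted p = 0.387 by edgeR). In the 3-library fit 0 of 3 genes of the list passed by edgeR, DESeq2 or limma, with 0 at an unadjusted p under 0.05, against 7.51% of all genes called higher and 3.20% lower by edgeR. *Fntb*, the catalytic subunit of farnesyltransferase, had 25.1 and 23.6 CPM in Tc1 and 28.2 and 39.6 CPM in Tc9 cells. The 1 gene of this list in the 4-library fit, where 17.4% of all genes were called higher, it rose by 0.48 on the log2 scale (SE 0.16, adjusted p = 0.0438 by edgeR), with no overlap between groups. The call was lost without Tc1 replicate 1, Tc1 replicate 2 or Tc9 replicate 2 (adjusted p = 0.274, 0.326 and 0.0517), without the filter (0.162) and with limma on FPKM (0.0571 to 0.0668), and the difference was 0.21 without Tc9 replicate 2.

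Levels of cell division genes are given beside those of the enzymes. All 22 of the list were lower in Tc9 replicate 2 than in Tc1 replicate 2, against 47.6% of all genes, with log2 ratios from -0.95 for *Rrm2* to -0.10 for *Mki67*, a median of -0.41 and 2 of 22 past 1.5-fold lower, against 12.5% of all genes. In the 4-library fit 4 of 7, *Cdk1*, *Ccna2*, *Bub1* and *Cdc45*, fell in Tc9 cells by edgeR, against 16.7% of all genes tested, and DESeq2 called 5 and limma 3 of the 7. The edgeR log2 differences of the 4 were -0.47, -0.42, -0.46 and -0.47, and none of the 4 passed without Tc1 replicate 1 or without Tc1 replicate 2. *Bub1* was also lost with depth alone, without the filter and with limma, and *Ccna2* without the filter. In the 3-library fit 0 of 14 passed by edgeR, with 0 at an unadjusted p under 0.05, against 7.51% of all genes called higher, 3.20% called lower and 699 of 2622 at an unadjusted p under 0.05. DESeq2 called 0 of 14, with 3 at an unadjusted p under 0.05, and limma called 0, with 0 at an unadjusted p under 0.05. The part of cell division in the levels of the enzymes was not tested.

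**Figure D4:**
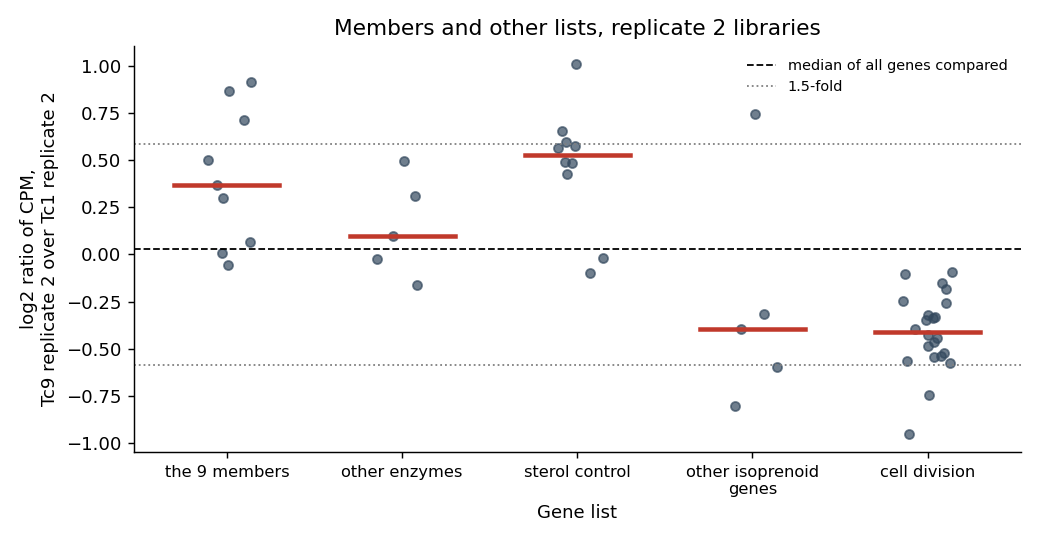
Log2 ratio of CPM in Tc9 replicate 2 over Tc1 replicate 2 for the genes of 5 lists; each point is a gene, red bars are medians, the dashed line is the median of all genes compared and dotted lines mark 1.5-fold. Medians are 0.37 for the 9 enzymes, 0.10 for other enzymes, 0.52 for sterol control, -0.40 for other isoprenoid genes and -0.41 for cell division.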

How the data were processed

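RNA of sorted Tc1 and Tc9 cells was extracted (RNeasy) and sequenced as DNA nanoball libraries. The authors deposited expected counts (estimated, not always whole) and FPKM per gene; mm10 is the build in the submitters' processing notes, and the aligner and counting program are not given in the sources used here. Within the range of a table an unlisted gene was taken as 0. An incomplete last row was dropped from 1 table. The depth of a table that stops early came from the ratio of count to FPKM of genes of equal length, relative to Tc9 replicate 2. Expected counts were rounded and tested with edgeR 4.0.16 (quasi-likelihood, two-sided, TMM factors 0.990, 0.983, 1.01 and 1.02, minimum count 10, R 4.3.3), with Benjamini-Hochberg adjustment over all genes tested. Ratios used a prior count of 2. The smallest level shown, 3 counts, is 0.0940 to 0.0973 CPM, and intervals cover counting error only. DESeq2 1.42.0 and limma 3.58.1 were alternatives, and the code was tested on simulated data. TMM was first computed before the filter on low counts, and this was changed to after it once results had been seen.

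The 9 members, the lists, the motifs and the tests were chosen with earlier results of these data known. Named are all members, and of the other lists the genes past the test and those with the highest and lowest difference; *Srebf2*, *Scap*, *Insig1*, *Acat2* and *Ggps1* were added after their values were seen. The libraries of a group differed beyond sampling noise, with a chi-square of 4.54 per gene for Tc1 and 57.9 for Tc9. No source pairs the libraries of a number by mouse. Coordinates come from RefSeq, GRCm38.p6, and 6 of 9 members matched a promoter. The result of 1 gene of the lists is not reported here.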

Additional observations from a re-analysis of the deposited data

How the results depend on the processing

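No member changed direction in the 4-library and 3-library fits that were run, and *Fdps* did not pass in any; the ratio of *Cyp51* went from 0.01 to -0.02 with TMM over the 2-library range. The members past 1.5-fold numbered 3 of 9 under all 7 alternatives, and the median log2 ratio of the 9 lay between 0.34 and 0.42. The share of all 6161 genes past 1.5-fold higher was 13.3% with log2(FPKM + 1). Under the other alternatives it lay between 19.2% and 22.2%. In the 3-library fit *Lss* passed with depth alone (0.74), a minimum count of 50 (0.69) and DESeq2 (0.69), and *Dhcr7* with depth alone (0.72) and a minimum count of 50 (0.68). Counts of genes moved more. Without the filter, the 4-library fit called 130 higher and 110 lower. Leaving out each library in turn gave 72 to 405 higher and 39 to 405 lower, the lowest without Tc1 replicate 1. In the 3-library fit the counts higher and lower were 321 and 216 with RLE factors, 371 and 163 with depth alone, 297 and 166 with a minimum count of 50, 323 and 216 with the sum of the shared range as depth, and 328 and 211 with TMM over that range, added after seeing the data. Without a filter edgeR called 0 and 0, with 370 and 228 at an unadjusted p under 0.05, against 237 and 105 by DESeq2 with the filter. The cause was not tested. TMM before the filter, also added later, gave 236 and 219 calls in the 4-library fit, 183 and 80 in the 3-library fit, and changed no call of a member.

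The replicate number as a block gave 231 higher and 213 lower, and *Fdps* stood at 0.05 (adjusted p = 0.802 by edgeR, with its lowest adjusted p, 0.142, without Tc9 replicate 1). Deviations of same-numbered libraries correlated at -0.06 across 1284 genes, and nothing in the labels pairs them. Groups of 2 libraries and tables that stop early limit every value: 4 members rest on 1 library per group, and the 4 in 3 libraries on 1 Tc1 library.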

Other observations

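A further 5 enzymes were reached by Tc9 replicate 2 alone and enter no comparison. Their levels there were 95.3 FPKM for *Idi1*, the isomerase of isoprenoid units, 92.3 for *Msmo1*, a sterol demethylase, 50.5 for *Lbr* and 3.33 for *Tm7sf2*, which both can reduce the sterol ring, and 43.3 for *Pmvk*, the kinase after *Mvk*. Of the regulators, the SREBP proteases *Mbtps1* and *Mbtps2* had 32.0 and 5.03 FPKM, and *Insig2* had 5.04 FPKM beside 58.5 FPKM for *Insig1* in the same library.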
